A study of Homo sapiens with 12 samples.

Results

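The 438 regions described here were places with an H3K27me3 peak in both succinate-treated libraries and in neither control library, when the same number of peaks, those of highest total signal, was taken from each library. H3K27me3, histone H3 trimethylated at lysine 27, is a mark of repressed chromatin. It was mapped by CUT&Tag, in which an antibody directs a transposase to chromatin and the released fragments are sequenced. The cells were HepG2/C3A, an established hepatocellular carcinoma line, and all libraries came from this line. One group received sodium succinate at 10 mM for 48 hours, dissolved in water, and the other was the control of the same length. Each group had 2 libraries, labelled as biological replicates 1 and 2, for H3K27me3 and 2 for succinylated lysine on any protein (Ksu). Libraries made with IgG were not used here, and no correction for antibody background was added to the deposited peaks. Whether the peak calls themselves used IgG is not given in the sources used here.

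The files list, for every library, the peaks called by SEACR, a caller that joins covered bases into blocks and keeps those of high total signal. The H3K27me3 lists held 19133 and 5813 peaks in control and 9985 and 5531 in succinate, on chromosomes 1 to 22, X and Y. To remove this difference in number, the 5531 peaks of highest total signal were taken from each list, which is the whole list of succinate replicate 2. Overlapping peaks were merged into 6080 union regions. Of these, 438 (7.2% of the 6080) held a peak of both succinate libraries and of neither control library. The regions were chosen by the total signal of the peaks in all 4 libraries, so their H3K27me3 values are a description and carry no test. The mirror pattern, both control libraries and neither succinate library, held 145 regions (2.38% of the 6080). The other pairs of libraries held 114, 72, 56 and 41 regions, and 3510 regions held peaks of all 4. The lists do not give read depth, and counting error could not be computed.

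H3K27me3 is written by Polycomb repressive complex 2 (PRC2) and is known for silencing developmental genes in cells of other lineages. It is erased by KDM6 demethylases of the Jumonji family, which use 2-oxoglutarate and release succinate as a product. An excess of succinate is known to slow these enzymes, and the series title names their inhibition by histone succinylation as its subject. Succinylation adds a bulky, negatively charged group to lysine and has been linked to active chromatin as well as to metabolism. In the lists used here, none of 12 liver genes, such as albumin and apolipoproteins, lay under any union region, and 6 of 12 marker genes of blood, neuron, muscle, pancreas and skin lay in regions of all 4 libraries. Of all 20033 protein-coding genes, 3453 lay in any union region and 2544 (12.7%) in regions of all 4 libraries.

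The sequences that follow are those of 6 gene starts inside the succinate-only regions. TMEM151A, PIK3AP1 and IGFBP6 lie in 3 of the 5 regions that no control peak touched at any rank, and DPEP1 lies in the widest and highest-ranked region. HES1, an effector of Notch signalling, was chosen after its values were seen, because its start lay under peaks of both succinate libraries and of no control library. FFAR2, a receptor for short-chain fatty acids, is shown for contrast, since control replicate 1 also had a peak at its start. Each line gives the 250 bases before the start, 5′ to 3′ on the strand of the gene, from RefSeq (GRCh38.p14), with every CG dinucleotide in capitals.
TMEM151A, chr11:66291644-66291893, plus strand: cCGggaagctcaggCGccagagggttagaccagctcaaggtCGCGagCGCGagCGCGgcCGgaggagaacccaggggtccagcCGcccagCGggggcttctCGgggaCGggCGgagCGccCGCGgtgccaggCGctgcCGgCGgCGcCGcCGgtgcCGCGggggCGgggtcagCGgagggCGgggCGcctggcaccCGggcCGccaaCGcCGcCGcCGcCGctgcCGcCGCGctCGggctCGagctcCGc
PIK3AP1, chr10:96720515-96720764, minus strand: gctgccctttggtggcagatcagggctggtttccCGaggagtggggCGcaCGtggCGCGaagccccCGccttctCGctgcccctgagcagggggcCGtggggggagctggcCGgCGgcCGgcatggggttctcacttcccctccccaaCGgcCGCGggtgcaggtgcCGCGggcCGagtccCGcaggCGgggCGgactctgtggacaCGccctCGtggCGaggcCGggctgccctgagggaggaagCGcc
IGFBP6, chr12:53097417-53097666, plus strand: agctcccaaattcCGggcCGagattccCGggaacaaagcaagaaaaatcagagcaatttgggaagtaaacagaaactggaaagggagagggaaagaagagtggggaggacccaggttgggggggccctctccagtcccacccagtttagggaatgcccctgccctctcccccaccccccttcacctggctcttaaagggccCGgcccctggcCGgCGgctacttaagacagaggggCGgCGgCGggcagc
DPEP1, chr16:89616635-89616884, plus strand: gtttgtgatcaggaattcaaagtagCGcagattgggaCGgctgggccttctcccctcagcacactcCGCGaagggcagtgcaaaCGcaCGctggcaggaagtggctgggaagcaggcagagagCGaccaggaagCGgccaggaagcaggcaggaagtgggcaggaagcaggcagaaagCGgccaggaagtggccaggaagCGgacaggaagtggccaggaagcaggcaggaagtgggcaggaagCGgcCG
HES1, chr3:194135898-194136147, plus strand: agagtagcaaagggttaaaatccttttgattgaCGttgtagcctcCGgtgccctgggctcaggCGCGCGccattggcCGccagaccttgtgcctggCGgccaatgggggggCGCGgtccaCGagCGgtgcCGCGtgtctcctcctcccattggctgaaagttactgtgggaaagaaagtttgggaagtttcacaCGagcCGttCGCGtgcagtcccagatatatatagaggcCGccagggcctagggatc
FFAR2, chr19:35448007-35448256, plus strand: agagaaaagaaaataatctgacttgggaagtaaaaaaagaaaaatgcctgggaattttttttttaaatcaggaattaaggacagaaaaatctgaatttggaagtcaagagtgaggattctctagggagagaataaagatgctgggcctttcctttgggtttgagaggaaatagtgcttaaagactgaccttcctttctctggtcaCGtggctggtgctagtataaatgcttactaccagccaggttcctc
CG, the letters counted, reads the same on both strands. There were 42 in the TMEM151A sequence, 25 in PIK3AP1, 9 in IGFBP6, 12 in DPEP1, 18 in HES1 and 1 in FFAR2. Among 22198 starts of protein-coding genes, 1.68% had at least 42 CG, 27.5% at least 25, 67.4% at least 9, 61.4% at least 12, 47.0% at least 18 and 96.8% at least 1. The gene starts shown thus ran from very rich to very poor in CG. Over all 131 starts in the succinate-only regions the median was 12 CG, and 59 of them (45.0%) had 15 or more. The median was 14 in regions of all 4 libraries, with 48.3% at 15 or more, and 16 over all starts, with 54.6%. The starts in control-only regions, 36 in number, had a median of 10.

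In control replicate 1, nearly all of the 438 regions carried H3K27me3 peaks of lower rank. When the whole lists were used, 433 of the 438 regions (98.9%) held a peak of control replicate 1. Its best peak there had a median rank of 7568 in a list of 19133, with quartiles of 6614 and 9176 and a range from 5555 to 18155. The list of control replicate 2 had just 282 peaks beyond those taken, and 62 regions (14.2%) held a peak of it. In succinate replicate 1 the median rank was 4508, from 663 to 5530, and in succinate replicate 2 it was 4205, from 610 to 5516. The ranks of the succinate libraries thus lay mostly in the weaker part of the peaks taken, and those of control replicate 1 were spread widely beyond them. In 425 regions the worse of the succinate ranks fell in the lower part of the 5531, and in 155 it fell among the last 500. The best rank of control replicate 1 was within 500 of the limit in 38 regions and beyond 10000 in 71.

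**Figure D1:**
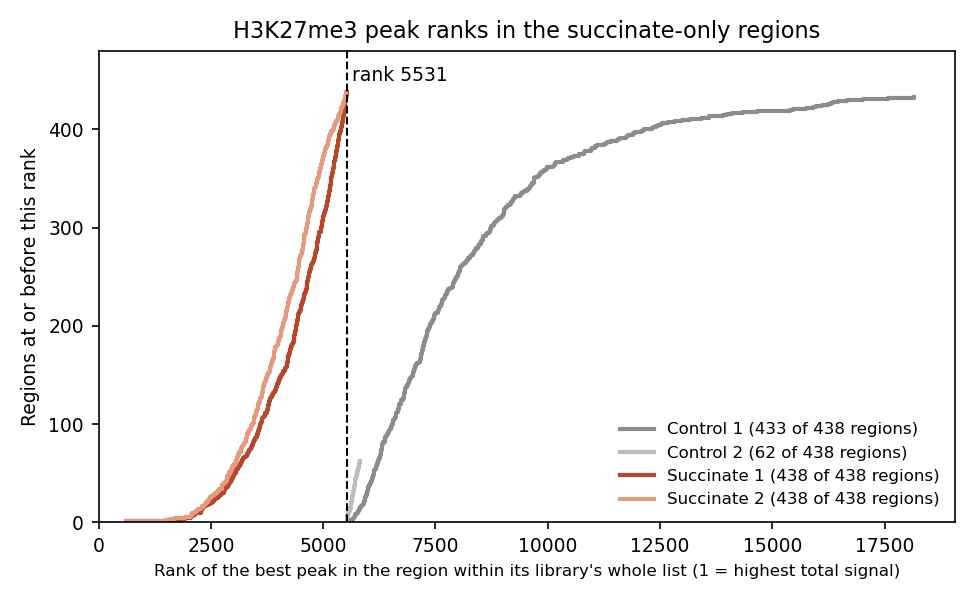
Rank of the best H3K27me3 peak in each succinate-only region within the whole list of its library (x axis, 1 is the highest total signal) against the number of regions at or before that rank (y axis), 1 line per library, with the limit of 5531 dashed. The succinate lines end at the limit, control replicate 1 climbs beyond it to 433 regions, and control replicate 2 ends at 62.

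At the limit itself, neighbouring values differed by 1 rank. A region on chr6:170122478-170133408 was inside with a best control rank of 5532, and one on chr7:132472265-132493702 was outside with 5531. The member with the lowest-ranked succinate peak, on chr5:180206305-180217370, had rank 5530.

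Peaks of the whole lists covered 88.8% of the bases of the 438 regions in succinate replicate 1 and 85.3% in succinate replicate 2. In control replicate 1 they covered 61.0% and in control replicate 2 8.09%. In regions of all 4 libraries the same shares were 89.6% and 87.8% in succinate and 86.3% and 76.7% in control. The scale of the signal differed between libraries, so the mean signal per base of peaks was divided by that of peaks in the regions of all 4 libraries. This ratio was 0.59 and 0.58 in succinate and 0.56 and 0.58 in control, over the bases under a listed peak alone. In control-only regions it was 0.62 and 0.58 in control and 0.49 in succinate replicate 1. The rule used the same signal and required control peaks in the succinate-only regions to fall below the limit, so cover and signal per base are descriptions of what was chosen. Control replicate 1 had 2 or more separate peaks in 150 regions. In 95 regions its peaks summed to at least the signal of the last peak taken, so that no single peak, but their sum, reached the limit. For control replicate 2 this was so in 1 region.

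**Figure D2:**
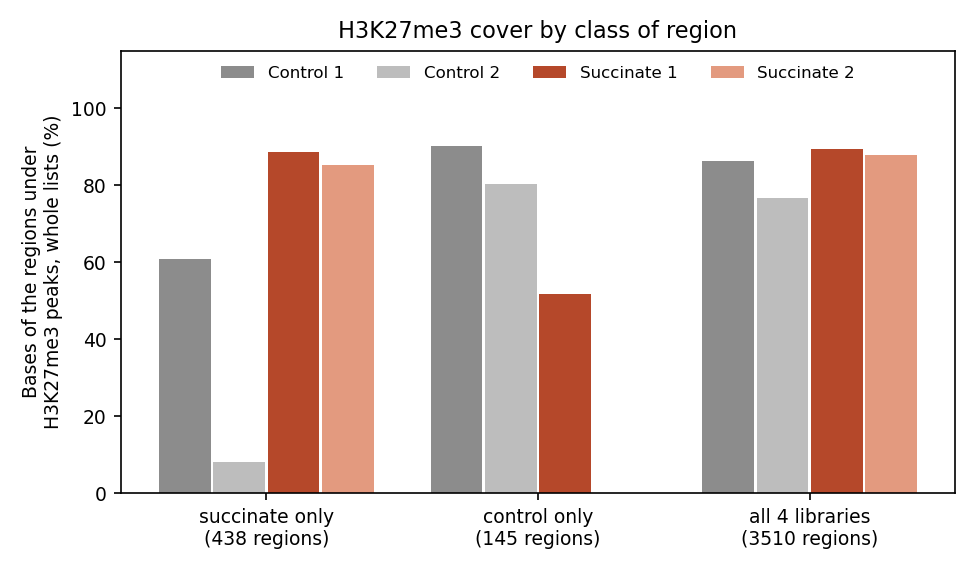
Share of bases under H3K27me3 peaks of the whole lists (y axis, percent) in regions only in succinate, only in control and in all 4 libraries (x axis), 1 bar per library. Control replicate 1 covered 61.0% of the succinate-only regions, and succinate replicate 1 covered 51.7% of the control-only regions, where succinate replicate 2 had none.

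The count of 438 rested on the number of peaks taken and on each library. It was 218 when 2765 peaks were taken from each list and 19 with the whole lists of unequal length. It rose to 657 without control replicate 1, 740 without control replicate 2, 852 without succinate replicate 1 and 722 without succinate replicate 2. Fewer lists then had to meet the rule, and without succinate replicate 2, the shortest list, 5813 peaks were taken from each of the others. Regions only in control numbered 91 with 2765 peaks and 100 with the whole lists. They numbered 434, 297, 219 and 304 when the same libraries were left out in that order. Succinate-only regions were thus the more frequent at equal numbers, and control-only regions with the whole lists.

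The 438 regions had a median width of 14472 bp, with quartiles of 11712 and 19713 bp and a range from 3523 to 46564 bp. Control-only regions were alike in width, with a median of 15177 bp, and regions of all 4 libraries were wider, with 28362 bp. Together the succinate-only regions covered 7.09 Mb, against 132 Mb for the regions of all 4 libraries. Their distance to the nearest region of all 4 libraries had a median of 46.0 kb. The same distance was 145 kb for control-only regions and 17.8 kb between regions of all 4 libraries. Of the 438, 102 (23.3%) lay within 10 kb of a region of all 4 libraries.

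Succinate-only regions lay in gene-rich surroundings more often than control-only regions. Within 500 kb on each side of their centre they had a median of 13 protein-coding genes, with quartiles of 8 and 23. Control-only regions had a median of 6, with quartiles of 4 and 9, and regions of all 4 libraries had a median of 10. Of the 438 regions, 141 (32.2%) had 20 genes or more around them and 46 (10.5%) had 4 or fewer. Within 5 Mb of a chromosome end lay 136 of the 438 (31.1%), 9 of the 145 control-only regions (6.21%) and 23.2% of the regions of all 4 libraries. Regions found in a single succinate library lay between these values, with a median of 8 genes and 19.9% near an end for replicate 1, and 10 genes and 18.5% for replicate 2. These are descriptions of regions, which share libraries and are not replicates. The base composition of the fragments in each library is not in the peak lists, and its part in this difference was not tested.

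**Figure D3:**
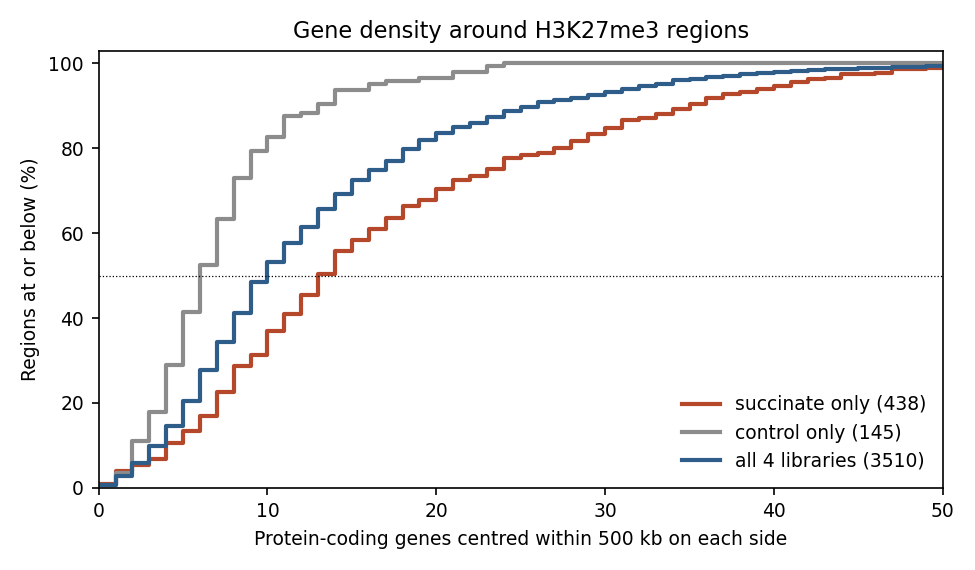
Number of protein-coding genes centred within 500 kb on each side of a region (x axis) against the share of regions at or below that number (y axis, percent), 1 line per class of region, with 50% dotted. The line of the 438 succinate-only regions lies to the right, with a median of 13 genes against 6 for the 145 control-only regions.

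By chromosome, the succinate-only regions were spread over 23 chromosomes and were most frequent among the union regions of chromosomes 21 (13 regions, 18.3%), 22 (34, 18.0%) and 19 (32, 15.9%). Chromosomes 9 (31, 13.0%) and 17 (38, 12.9%) followed. Chromosomes 19 and 17 have 24.8 and 14.0 protein-coding genes per Mb, chromosome 22 has 8.88, and chromosomes 21 and 9 have 5.12 and 5.63. The relation of these shares to gene density per chromosome was not tested. The share was lowest on chromosome 5, with 3 of 255 regions (1.18%), and on chromosome 18, with 2 of 105 (1.90%). Chromosome 5 held 27 control-only regions (10.6%), the most of any chromosome. Chromosomes 15, 21 and 22 held none. On 19 chromosomes the succinate-only regions outnumbered the control-only regions, and on 4 (5, 18, 20 and X) the order was the opposite.

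**Figure D4:**
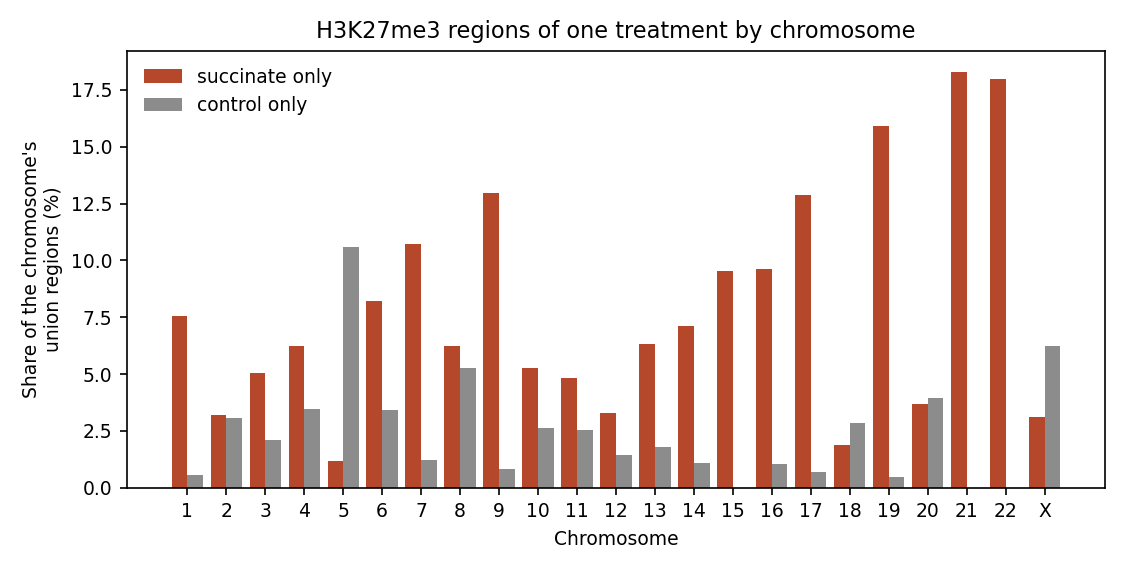
Share of the H3K27me3 union regions of each chromosome (y axis, percent) that were present only in succinate or only in control (bars), for the 23 chromosomes with a union region (x axis). Succinate-only shares reach 18.3% on chromosome 21, and chromosome 5 has 1.18% succinate-only and 10.6% control-only regions.

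Some succinate-only regions were neighbours. Joined at distances up to 200 kb, the 438 formed 365 groups, of which 61 held 2 or more regions, 134 regions in all. On chr21:44343997-44445187, 4 regions lay along TRPM2, a cation channel gated by ADP-ribose. Another 4 lay on chr16:2709417-3019582 at CLDN6 and CLDN9 (claudins of tight junctions), KREMEN2 (a receptor of Dickkopf proteins), FLYWCH1 and the serine proteases PRSS22 and PRSS27. Groups of 3 lay, among other places, at THBS2, a thrombospondin of the extracellular matrix, and at DPYSL4, JAKMIP3 and PWWP2B on chromosome 10.

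The widest region, on chr16:89571100-89617663, also ranked highest in both succinate libraries. It overlapped the start of DPEP1, a membrane dipeptidase of the kidney, and CPNE7, a calcium-dependent phospholipid-binding protein. Peaks covered 42708 bp of it at rank 663 in succinate replicate 1 and 46564 bp at rank 610 in replicate 2. In control replicate 1, 7 separate peaks covered 35201 bp, the best at rank 6226, and in control replicate 2, 5040 bp were covered at rank 5745. The stretch was thus continuous in succinate and broken or short in control. The start of DPEP1, at position 89616885 on the plus strand, lay near the end of the region, so most of the region lay before the gene. It lay under peaks of both succinate libraries and of no control library.

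Among the other wide regions, chr17:17361240-17403852 overlapped no protein-coding gene and had 42613 and 19976 bp under peaks in succinate and 19331 and 0 bp in control. MUC22, a membrane mucin, lay in chr6:31024205-31066745, where 30108 and 42113 bp were covered in succinate and 28306 and 6340 bp in control. BAIAP2, an adaptor of actin signalling, and CHMP6, a subunit of the ESCRT-III complex, overlapped chr17:80997843-81036109. The BAIAP2 start, at 81035151, lay near the end of this region, under a peak of succinate replicate 1 alone. In the region, 33946 and 35790 bp were covered in succinate and 16770 and 0 bp in control. A region without a gene on chr2:112601392-112637424 had 35801 and 27902 bp in succinate and 9904 and 0 bp in control. CDCP2 and TCEANC2 lay in chr1:54107981-54142933, with 34953 and 30814 bp in succinate and 15998 and 0 bp in control. In each of these regions both succinate libraries covered more bases than either control library, though by a small margin for 1 succinate library at MUC22 and at the region on chromosome 17. On chr4:672861-706535, which overlaps PCGF3 (a Polycomb RING finger protein), MYL5, ATP5ME and SLC49A3, the values were 24826 and 24565 bp in succinate and 7057 and 0 bp in control. The PCGF3 start, at 705832, lay near the end of this region. It lay under a peak of control replicate 1 and of succinate replicate 1, and under none of control or succinate replicate 2. IGFBP4, which binds insulin-like growth factors, and TNS4, a tensin of focal adhesions, lay in chr17:40456362-40489794, with 20181 and 33433 bp in succinate and 11491 and 0 bp in control.

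Besides the region of DPEP1, the best-ranked regions stood well below it in rank, between 1702 and 2441, in both succinate libraries. PNPLA7, a lysophospholipase, lay in chr9:137484385-137502681, which had ranks 2100 and 2062 in succinate and 6370 and 5692 in control. A region on chr8:143342829-143366351 at RHPN1 and TOP1MT, the mitochondrial topoisomerase, ranked 1702 and 2163 in succinate and 6465 in control replicate 1. On chr15:75749592-75771864, without a protein-coding gene, the ranks were 2432 and 2216 in succinate and 8001 in control replicate 1. Those on chr16:29174246-29195823 and chr8:12008827-12032532, also without a gene, ranked 2335 and 2142, and 2048 and 2441, in succinate, against 6109 and 5768 in control replicate 1. The wide region on chromosome 2 described above ranked 2050 and 2426 in succinate and 9181 in control replicate 1. Of these 6 regions, that of PNPLA7 alone had a listed peak of control replicate 2.

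No control peak of any rank touched 5 of the regions. The widest of them, on chr1:17474028-17497767, overlapped no protein-coding gene, and 15536 and 23740 bp of it were covered in the succinate libraries. IGFBP6, which binds insulin-like growth factors, lay in chr12:53085571-53099680, with 14110 and 13972 bp covered. TMEM151A, a transmembrane protein, lay in chr11:66290752-66304457, with 13548 and 13706 bp. PIK3AP1, an adaptor that links receptors of immune cells to phosphoinositide 3-kinase, lay in chr10:96715603-96727626, with 11885 and 11627 bp. GMEB2, a nuclear DNA-binding factor, lay in chr20:63576214-63588148, with 11037 and 11935 bp. In all 5, the succinate ranks lay between 3492 and 5462.

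Gene bodies took up 38.0% of the bases of the succinate-only regions, against 35.6% in control-only regions, 48.8% in regions of all 4 libraries and 41.3% of the chromosomes. A gene body was overlapped by 246 of the 438 regions (56.2%), by 49.7% of control-only regions and by 67.5% of regions of all 4 libraries. The succinate-only regions overlapped 297 of 20033 protein-coding genes (1.48%), and regions of all 4 libraries overlapped 2544 (12.7%). A gene start lay in 97 of the succinate-only regions (22.1%), against 33.2% of regions of all 4 libraries, which were wider, and 26.9% of all union regions. The share in control-only regions, 29 of 145, was slightly lower than in succinate-only regions. The place of highest signal was within 1 kb of a gene start in 2.93% of the succinate replicate 1 peaks and in 4.33% of the succinate replicate 2 peaks of these regions. In regions of all 4 libraries those shares were 5.10% and 6.30%. The strongest signal therefore lay mostly away from gene starts in both classes.

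Of the 131 gene starts in the succinate-only regions, 120 and 121 lay under peaks of succinate replicates 1 and 2 and 110 under both. Peaks of the whole list of control replicate 1 covered 80 starts and those of control replicate 2 covered 15. There were 32 starts of 30 genes under peaks of both succinate libraries and of no control library. The rule chose regions without control peaks of high rank, and control replicate 2 listed just 282 peaks beyond those taken. The count therefore describes what was chosen, and its share over all gene starts was not computed. The genes named here from these 30 were chosen after their values were seen. They included HES1, a repressor that acts downstream of Notch, CLDN4 and CLDN6, claudins of tight junctions, and CBX6, a Polycomb protein with a chromodomain. FURIN, a protease that matures secreted precursors, HK1, a hexokinase, and SLC25A29, a mitochondrial carrier of basic amino acids, were also among them. Another start of FURIN in the same region, at 90868588, lay under a peak of control replicate 1 as well. The HES1 region, chr3:194126251-194152252, had 26002 and 12107 bp under peaks in succinate and 13506 and 0 bp in control. Thus control replicate 1 had a peak in the region, but not at the HES1 start. The CLDN4 region, chr7:73813652-73832684, had 11967 and 19018 bp in succinate and 7317 and 0 bp in control. The CBX6 region, chr22:38869745-38885465, had 15335 and 15692 bp in succinate and 7574 and 0 bp in control.

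Gene families known as Polycomb targets had many more members in regions of all 4 libraries than in the succinate-only regions, which cover far fewer bases. No gene of the HOX family (39 genes), the PAX family (9), the SOX family (19), the T-box family (16), the GATA family (6), the neurogenic bHLH family (20) or the WNT pathway (42) overlapped a succinate-only region. In the regions of all 4 libraries lay 33 of the HOX, 9 of the PAX, 4 of the SOX, 5 of the T-box, 3 of the GATA, 11 of the neurogenic bHLH and 21 of the WNT genes, against 12.7% of all protein-coding genes. As 1.48% of all protein-coding genes overlapped a succinate-only region, counts of 0 in families of this size lie near the background. Of 101 other homeobox factors, 2 (1.98%) overlapped a succinate-only region and 50 a region of all 4 libraries. These were NKX1-1, in chr4:1398619-1414303 with 15662 and 15650 bp in succinate and 15447 and 0 bp in control, and SIX5, in chr19:45743417-45769025 with 21044 and 17636 bp in succinate and 7007 and 13070 bp in control. One of 52 forkhead genes, FOXP4, did so, and 16 lay in regions of all 4 libraries. Protocadherins (66 genes) and cadherins (23) had no member in succinate-only regions.

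Transport and signalling genes had a few members there. Solute carriers had 8 of 398 (2.01%). They included SLC13A2, a sodium-coupled carrier of dicarboxylates such as succinate, in chr17:28460213-28479895 with 19607 and 17610 bp under peaks in succinate and 15928 and 0 bp in control. SLC29A4, a carrier of monoamines, lay in chr7:5258204-5283380 with 16966 and 25177 bp in succinate and 15779 and 0 bp in control, and SLC1A7, a glutamate transporter, in chr1:53072144-53104999 with 28252 and 16785 bp in succinate and 10240 and 0 bp in control. Among 107 neurotransmitter receptors 3 were overlapped (2.80%), the glutamate receptor genes GRIK3, GRIK4 and GRIN3B, and among 96 potassium channels 2 (2.08%), KCNG2 and KCNH4. The GRIK4 region, chr11:120678548-120700334, had 21787 and 21610 bp in succinate and 16204 and 0 bp in control. Of 44 collagen genes, 1 (COL26A1) was overlapped, of 152 keratin and keratin-associated genes 2 (KRTAP5-6 and KRTAP5-11), of 392 olfactory receptors 2 (OR51D1 and OR51E1) and of 517 ZNF genes 3 (ZNF618, ZNF653 and ZNF683). The shares above that of all protein-coding genes rested on 1 to 8 genes each. No gene of the lists of PRC2 subunits (12), JmjC demethylases (24), succinate metabolism and desuccinylation (15), histones (82), cytochromes P450 (56), peptidylarginine deiminases (5), housekeeping (10) or liver (12) genes was overlapped. Against 1.48% of all protein-coding genes, counts of 0 in lists of this size lie near the background. All 5 peptidylarginine deiminases and 6 of the 56 cytochromes P450 lay in regions of all 4 libraries, and no gene of the other lists named here did.

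Ksu was measured in libraries that had no part in choosing the regions, so its difference between treatments could be tested. Ksu peaks covered 1.81% and 4.70% of the bases of the succinate-only regions in control (3.26 ± 2.04, SD, n = 2) and 9.21% and 14.4% in succinate (11.8 ± 3.64, SD, n = 2). Both succinate values lay above both control values. The log2 difference of the covered share, succinate minus control, was 1.98 (pooled SD 0.76, p = 0.333 by two-sided exact permutation, the smallest that 2 against 2 libraries allow). It was 1.29 without Ksu control replicate 1 and 2.66 without Ksu control replicate 2. The Ksu lists themselves differed, with 76702 and 382019 peaks in control and 294568 and 629903 in succinate, which covered 2.63%, 6.07%, 6.16% and 10.8% of the chromosomes.

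The cover of the regions was therefore divided by that of the chromosomes in the same library, where 1 means as much Ksu as the genome on average. The ratio was 0.69 and 0.78 in control (0.73 ± 0.061, SD, n = 2) and 1.50 and 1.33 in succinate (1.41 ± 0.115, SD, n = 2). The succinate-only H3K27me3 regions thus held less Ksu than the chromosomes in both control libraries and more in both succinate libraries. On the log2 scale the ratio was 0.95 higher in succinate, a 1.93-fold difference (pooled SD 0.12, p = 0.333 by two-sided exact permutation). At equal numbers, 76702 Ksu peaks per library, this difference was 1.31 (pooled SD 0.35, p = 0.333 by exact permutation), again without overlap of the treatments.

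The sequence around the regions showed a difference of like size. Within 50 kb of them, outside all union regions, the ratio was 0.52 and 0.64 in the control libraries against 1.16 and 1.17 after succinate, a log2 difference of 1.01 (pooled SD 0.15, p = 0.333 by exact permutation). When the regions were set against these surroundings, the ratios were 1.33 and 1.21 in the control libraries against 1.29 and 1.14 after succinate. That log2 difference was -0.065 (pooled SD 0.11, p = 0.667 by exact permutation). Against the sequence within 500 kb it was 0.023 (pooled SD 0.095, p = 1 by exact permutation). The regions thus held slightly more Ksu than their surroundings in all 4 libraries, and the difference between treatments had the size of that in the surroundings.

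Other H3K27me3 regions started from a higher level of Ksu. In regions of all 4 libraries the ratio was 1.44 and 1.07 in the control libraries against 2.09 and 1.52 after succinate, a log2 difference of 0.53 (pooled SD 0.31, p = 0.333 by exact permutation). In control-only regions it was 2.96 and 1.57 in the control libraries against 2.27 and 1.52 after succinate, a log2 difference of -0.22 (pooled SD 0.54, p = 0.667 by exact permutation). At equal numbers of Ksu peaks the log2 difference was 1.08 in regions of all 4 libraries (pooled SD 0.49, p = 0.333 by exact permutation). In control-only regions it then turned to 0.090 (pooled SD 0.41, p = 1 by exact permutation). The cover of succinate-only regions divided by that of regions of all 4 libraries was 0.48 and 0.73 in the control libraries against 0.72 and 0.88 after succinate. The log2 difference of 0.42 was close to its pooled SD of 0.33, and the treatments overlapped (exact permutation p = 0.667). It ranged from 0.12 without Ksu control replicate 1 to 0.72 without Ksu control replicate 2. Set against control-only regions, the cover was 0.23 and 0.49 in the control libraries against 0.66 and 0.88 after succinate, without overlap, with a log2 difference of 1.17 (pooled SD 0.58, p = 0.333 by exact permutation). The 12 comparisons of Ksu share the same 4 libraries. After Benjamini-Hochberg adjustment over the 12, the lowest exact permutation p was 0.571, and the design could not reach 0.05 for any of them.

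**Figure D5:**
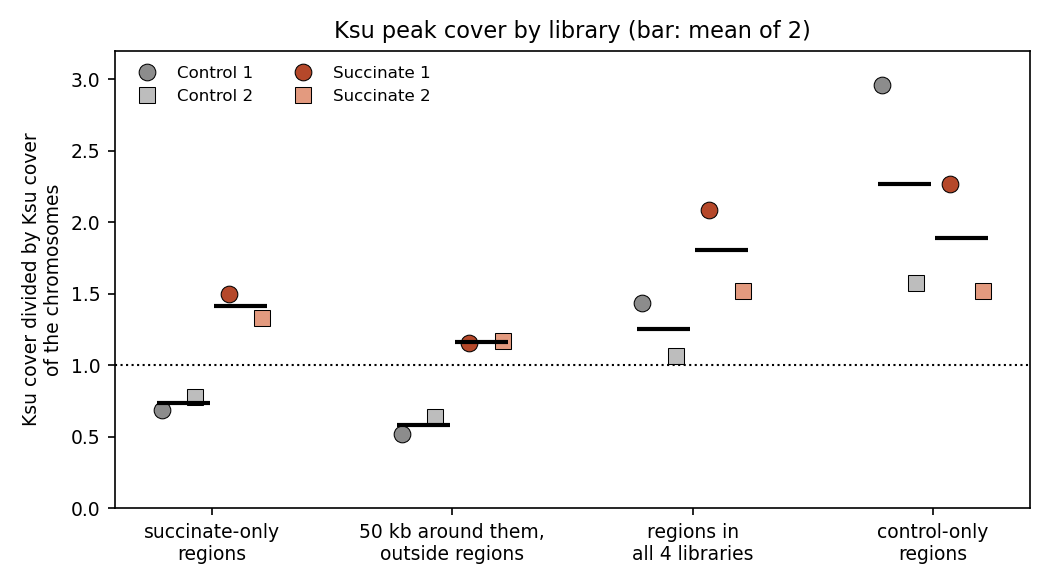
Ksu cover divided by that of the chromosomes (y axis) for the succinate-only H3K27me3 regions, the 50 kb around them, regions of all 4 libraries and control-only regions (x axis). Points are single Ksu libraries, bars the mean of 2, and the dotted line marks 1. At the succinate-only regions and around them the control points lie below 1 and the succinate points above 1.

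Region by region, 206 of the 438 (47.0%) had a Ksu ratio in both succinate libraries above both control libraries, and 8 (1.83%) had it below. Over all 6080 union regions these shares were 39.9% and 3.95%. Regions of all 4 libraries had 41.1% and 3.30%, and control-only regions 20.7% and 13.8%. The share among succinate-only regions was thus a little above that of all union regions. The count of 206 was 58 of the 438 at equal numbers of Ksu peaks. It was 135 of 328 when H3K27me3 peaks were ranked by their highest signal. It was 339 of 740 without H3K27me3 control replicate 2, 369 of 852 without succinate replicate 1 and 323 of 722 without succinate replicate 2. The share over all union regions was not computed under these settings, so these counts have no background beside them. Many regions had no Ksu peak at all, namely 347 and 105 of the 438 in the control libraries and 69 and 10 in the succinate libraries. At the 131 gene starts, Ksu peaks lay over 2 and 7 in control and over 12 and 21 in succinate. The same Ksu lists covered 2.63% and 6.07% of the chromosomes in control and 6.16% and 10.8% in succinate. The share over all gene starts was not computed.

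The 2 regions with the most Ksu were not among the 206. The one on chr20:60251338-60261659, without a protein-coding gene, had 23.6% and 26.4% of its bases under Ksu peaks in control and 38.9% and 13.3% in succinate. The one on chr6:169336813-169347123, at LOC105378148, had 9.54% and 28.1% in the control libraries against 19.9% and 25.7% after succinate. In both regions the percentages of the treatments overlapped, and divided by the chromosome average the chr6 region was lower in both succinate libraries. The widest region, at DPEP1, and the HK1 region, chosen after its values were seen, were among the 206. The DPEP1 region had 0% and 1.40% in the control libraries against 5.84% and 8.94% after succinate. The HK1 region, chr10:69277427-69301117, had 0% and 2.05% in the control libraries against 13.1% and 21.3% after succinate.

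Within the 438 regions, Ksu varied with the surroundings. In the 239 regions with 13 or more genes around them the Ksu ratio was 0.42 and 0.65 in the control libraries against 1.21 and 1.19 after succinate. In the 199 with fewer it was 1.01 and 0.93 in the control libraries against 1.84 and 1.50 after succinate. The 246 regions that overlapped a gene body had 0.62 and 0.72 in the control libraries against 1.31 and 1.23 after succinate, and the 192 others had 0.78 and 0.84 in the control libraries against 1.74 and 1.47 after succinate. In the 62 regions with a listed peak of H3K27me3 control replicate 2 the ratios were 1.21 and 0.90 in the control libraries against 1.56 and 1.47 after succinate. In the 376 without one they were 0.60 and 0.76 in the control libraries against 1.48 and 1.31 after succinate. In each of these subsets both succinate values lay above both control values, and the differences between subsets were not tested. H3K27me3 cover by control replicate 1 was alike across them, from 59.6% with a gene body to 67.6% with a peak of control replicate 2.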

How the data were processed

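CUT&Tag libraries of H3K27me3 and Ksu (2 per antibody and treatment) were used as deposited peak lists. Per the submitters' processing notes, peaks were called with SEACR on hg38; the file names add stringent mode. The aligner, threshold, control track and scaling are not given in the sources used here. The deposited lists give the authors' total signal and highest signal per peak, on a scale that differs between libraries, so signal was compared within a library.

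From each H3K27me3 list the 5531 peaks of highest total signal on chromosomes 1 to 22, X and Y were taken (ties in file order) and merged where they overlapped by 1 bp or more. Genes (20033 protein-coding) came from a RefSeq table and gene starts from RefSeq promoter sequences, both GRCh38.p14. A gene was counted in a region where its body overlapped it by 1 bp or more, so much of a gene could lie outside. Chromosomes were taken to end where their last peak or gene ended (3056 Mb in sum). Ksu was compared between treatments on the log2 scale by exact permutation, two-sided, over 6 arrangements of the libraries. The replicates are labelled biological; what separated them is not stated, so p-values measure the spread between these libraries.

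Named regions were the 8 widest, the 8 best ranked by the worse succinate rank, those without a control peak, the 2 with the most Ksu, up to 4 per gene list and the 8 widest with a gene start, the last 2 groups named in part. One of the best ranked is not reported here. Regions and gene lists were chosen with earlier results of these data known. Python 3.11.15, numpy 2.4.6 and pandas 2.3.3 were used, and the overlap and test code was tested on simulated data. Alternatives varied the ranking, number, joining and presence of peaks, the Ksu lists and the libraries.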

Additional observations from a re-analysis of the deposited data

How the results depend on the processing

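Over 10 results, 139 alternative values were computed under 20 settings: 91 stayed within a set margin, 47 moved and 1 changed direction. The margin was 1.5 times for counts and the pooled SD for Ksu differences. For width it was the spread between the 2 succinate libraries. For percentages it was a 95% binomial interval over the regions, which are not replicates, so it does not measure the spread between libraries. The expectations from the surroundings were chosen after seeing the data. With 2 libraries a group no test could pass 0.05, and read depth is unknown, so absence from a list is not absence of the mark. The cause of the changes was not tested beyond what a setting does by construction.

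Set against 50 kb on each side, the Ksu log2 difference changed direction, to -0.065, and against 500 kb it was 0.023. It was 0.59 with the whole H3K27me3 lists and 1.31 at equal Ksu numbers. The difference from regions of all 4 libraries became 0.071 with the whole lists.

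With 2765 peaks per list there were 218 succinate-only and 91 control-only regions. Control replicate 1 then had a peak in 100% of the succinate-only regions and control replicate 2 in 88.1%. The median width was 24796 bp, gene bodies took up 45.6% and 108 of the 218 regions had higher Ksu in succinate. With the whole lists there were 19 succinate-only regions, by construction 0% of them with a peak of either control. Their median width was 16575 bp, and 4 of the 19 had higher Ksu. Ranking by mean signal per base gave 85 control-only regions, 5.14% with control replicate 2 and a width of 13486 bp. Ranking by highest signal gave 7.62% with control replicate 2 and 135 of 328 regions with higher Ksu. Joining peaks within 5 kb gave 8.68% and 13932 bp, and presence at 50% cover gave 37.5% and 17329 bp. Equal Ksu numbers gave 58 of the 438 regions with higher Ksu. No share over all union regions was computed beside these counts of higher Ksu.

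When each H3K27me3 library was left out, succinate-only regions numbered 657 to 852 and control-only regions 219 to 434. The share with control replicate 1 ranged from 96.4% to 99.3% and with control replicate 2 from 0% to 49.2%. The 0% came without succinate replicate 2, by construction, as the whole list of control replicate 2 was then taken. The 49.2% came without control replicate 2, which then had no part in the rule. The width ranged from 12662 to 16066 bp and the gene body share from 37.3% to 40.1%. Regions with higher Ksu ranged from 290 of 657 to 369 of 852. Leaving out each H3K27me3 or Ksu library gave Ksu log2 differences from 0.79 to 1.03 for the ratio to the chromosomes. They ranged from 1.29 to 2.66 for the cover and from 0.12 to 0.72 against regions of all 4 libraries. Leaving out each Ksu library gave 246 to 294 of the 438 regions with higher Ksu. The share over all union regions was not computed with a library left out.

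The labels give the groups the same replicate numbers without saying what a number marks, and 2 pairs do not settle it. Deviations of same-numbered libraries correlated at 0.11 for H3K27me3 and 0.16 for Ksu. With the replicate number as a block the Ksu log2 differences kept their values of 1.98, 0.95 and 0.42 (exact sign-flip p = 0.5, the smallest possible).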

Other observations

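Of the microRNA hairpins in the RefSeq table, 6 lay in 5 of the succinate-only regions: MIR6860, MIR345, MIR4313, MIR5093, MIR199B and MIR3154. MIR199B and MIR3154 shared the region chr9:128230490-128248031, and MIR345 lay in chr14:100305505-100322176, the region of the SLC25A29 start. MIR4313 lay in chr15:75749592-75771864, among the best-ranked regions of both succinate libraries. The share of all hairpins in these or other regions was not computed, so the count of 6 has no background beside it. These positions are a description, and the expression of the microRNAs was not measured here.

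No succinate-only region lay outside the chromosomes when all sequences were used, where 6 union regions were found.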
